A study of Caenorhabditis elegans with 16 samples.

Results

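The genes described here belong to lysozyme, saposin-like and antimicrobial peptide families of *C. elegans*. They were taken by symbol and not by a shown activity, as every gene whose WormBase symbol begins with lys-, ilys-, spp-, cnc-, abf-, fip- or fipr- and ends in a number. This rule found 99 of the 46726 genes in the count tables, namely 10 lys, 6 ilys, 30 spp, 11 cnc, 6 abf, 7 fip and 29 fipr genes. Each of the 99 is annotated as protein coding. A count in any of the 16 samples was found for 95 of them, whereas 1 fip and 3 fipr genes had none. The level of a gene is given as CPM, its read count scaled by the total count of the sample. A mean of at least 10 CPM in at least 1 of the 8 groups was reached by 41 genes, and 36 of the 99 stayed under 1 CPM in each group.

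Nematodes have no antibodies and no circulating immune cells, so epithelia make the killing proteins themselves. The lys genes encode lysozymes of a type related to those of amoebae, and the ilys genes encode lysozymes of the invertebrate type; both kinds cut the peptidoglycan wall of bacteria. The spp genes encode saposin-like proteins, or caenopores, of which SPP-1, SPP-3 and SPP-5 have been shown to kill bacteria by forming pores in their membranes and are made in the intestine, where they also help to break down the bacteria a worm eats. The cnc genes (caenacins) and the fip and fipr genes (fungus-induced proteins and their relatives) encode short secreted peptides, many of them made by the epidermis upon infection with the fungus Drechmeria coniospora or wounding. The abf genes (antibacterial factors) encode defensin-like peptides, among which ABF-2 is made in the pharynx. HLH-30, the single worm ortholog of mammalian TFEB, activates lysosomal and autophagy genes when food is absent and contributes to the antimicrobial response to bacterial infection.

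RNAseq was done on whole L1 larvae of the wild-type strain N2 and of *hlh-30(lf)*, which carries the deletion allele tm1978, with 2 samples for each genotype and nutrient state. Fed larvae were collected 18 hours after eggs were put on dishes with E. coli OP50, starved larvae hatched without food and were held for 33 hours, and refed larvae were given *C. elegans* maintenance medium (CeMM), a defined liquid food without bacteria, for 3 or 15 hours after the same starvation. Each sample was a pool of many worms, and the samples of a group were biological replicates. Starved and refed larvae were older than fed ones and no larvae starved for longer were sequenced beside the refed ones, so that feeding cannot be told apart from age, development and culture. Comparisons that involve the starved larvae of a genotype share those samples. In bulk samples, fewer cells of a type and less RNA per cell cannot be told apart.

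The samples held 29205691 to 40955529 counts, with 3 counts equal to 0.0733 to 0.103 CPM. The *hlh-30* gene itself was read at 375 to 781 CPM in the *hlh-30(lf)* samples and at 422 to 748 CPM in wild-type ones, which checks nothing because a whole-gene count includes the exons outside the deletion. The 2 samples of wild type at CeMM 15 h and those of starved *hlh-30(lf)* differed from each other more than other replicates did, with a chi-square per degree of freedom of 162 and 48.1, against 2.44 to 13.3 elsewhere, and rRNA took up to 12.9% of a sample, in wild type CeMM 15 h replicate 2. Markers of intestine, epidermis, pharynx, body wall muscle and neurons were all above 0 in each sample. The summed level of 6 intestinal markers was 3432 and 3649.5 CPM in the fed wild-type samples and 2392 and 2667 CPM in the starved ones. The markers did not fall together, as 3 were called higher and 3 lower upon starvation of wild type. In the mutant the sum was 3521 and 3662 CPM in fed and 874 and 827 CPM in starved worms, with 1 marker called higher and 5 lower. The sums of the starved mutant samples were the lowest of those 4 groups. The 5 epidermal markers summed to 589 and 586 CPM in fed and 96.9 and 89.1 CPM in starved wild type, and to 473 and 529 CPM in fed and 245 and 246 CPM in starved *hlh-30(lf)*. The 5 all fell upon starvation of wild type. In *hlh-30(lf)* 4 of them fell, whereas *lin-26* rose from 128 to 239 CPM (group means) and made most of the starved sum.

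Of the 95 genes tested, 22 were raised and 39 reduced by starvation in wild type (edgeR's quasi-likelihood test, Benjamini-Hochberg adjusted p of at most 0.05), or 61 in all, where 40.2% of all 30177 tested genes were called, 20.1% higher and 20.1% lower. In the mutant 15 genes rose and 39 fell upon starvation, beside 37.6% of all genes (18.4% and 19.1%). The families went different ways. In wild type, none of the 10 lys genes rose and 9 fell, while 13 of the 30 spp genes rose and 7 fell. In *hlh-30(lf)*, 6 spp genes rose and 12 fell, and 1 lys gene, *lys-3*, rose while 6 fell. The median log2 change of the tested spp genes was 0.65 in wild type and -0.22 in *hlh-30(lf)*, against 0 over all genes. The change upon starvation itself differed between the genotypes for 36 of the 95 genes, 14 with a more positive and 22 with a more negative change in *hlh-30(lf)*, beside 27.7% of all genes (14.1% and 13.6%). Of these, 14 of the 22 were spp genes, and 2 spp genes, *spp-20* and *spp-28*, were among the 14. No cnc gene was among the 22, and 4 of the 11 cnc genes were among the 14.

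**Figure D1:**
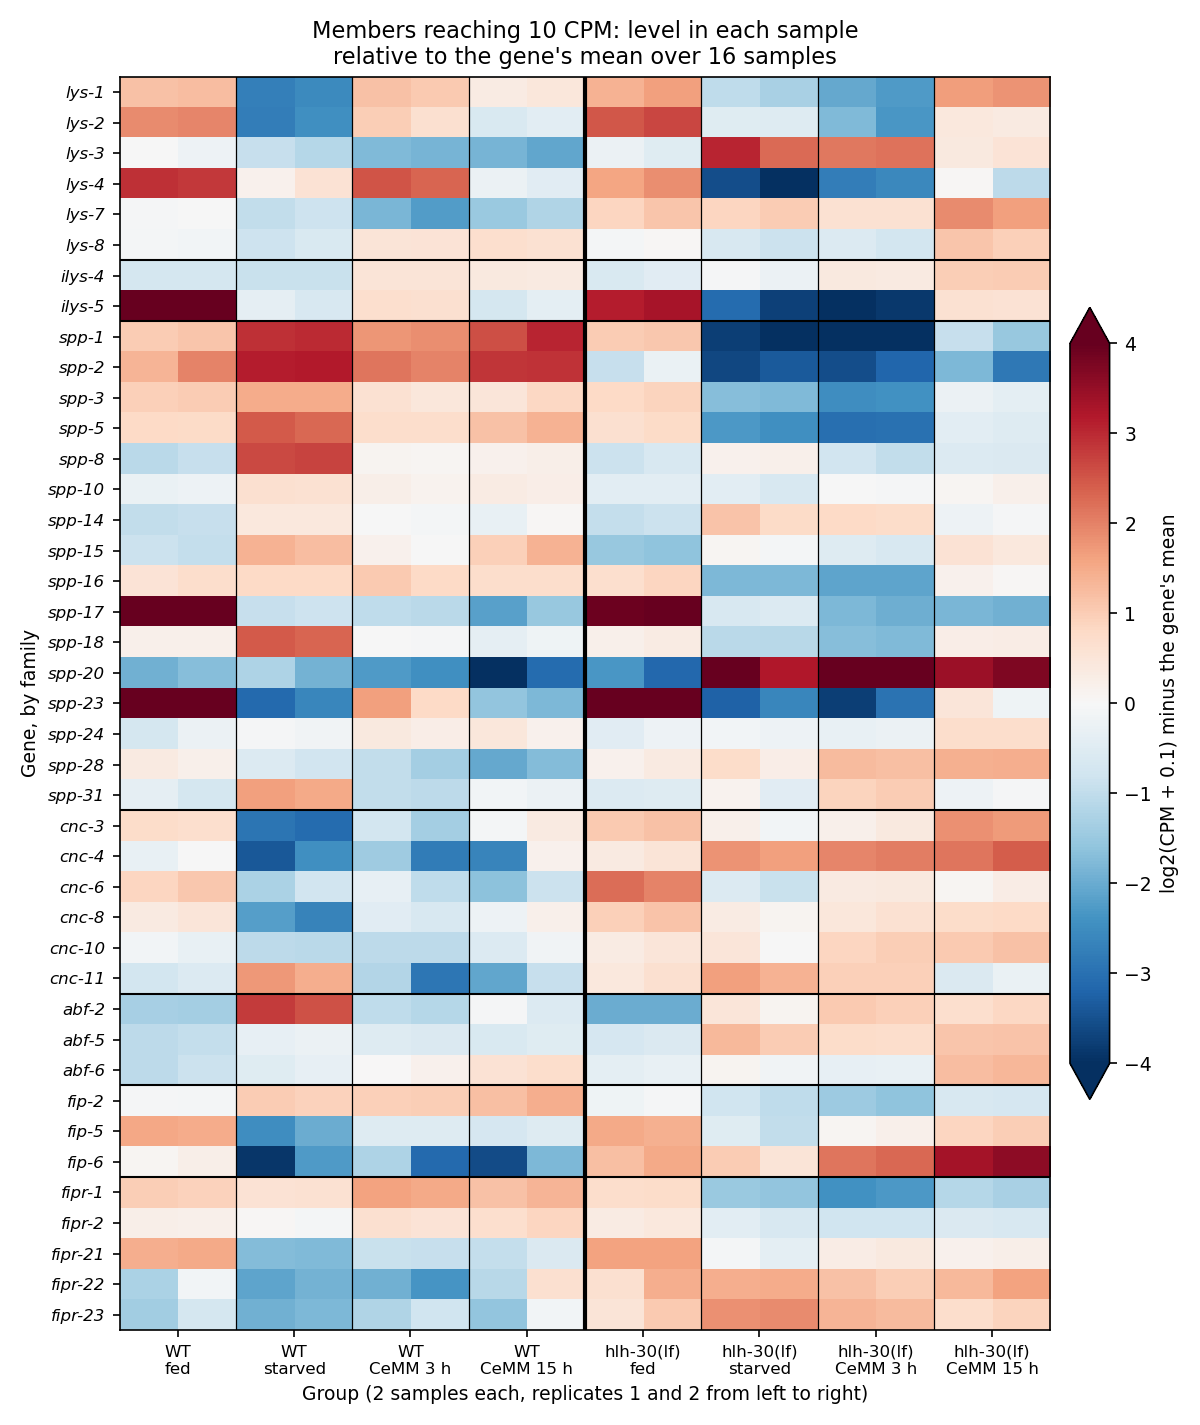
Levels of the 41 genes that reach a group mean of 10 CPM (lines, by family) in each of the 16 samples (columns), as log2(CPM + 0.1) minus the gene's mean over the samples, with colours saturating at 4. *lys-1* and *lys-2* are low in both starved wild-type samples, *spp-1*, *spp-2*, *spp-3* and *spp-5* are low in starved and CeMM 3 h *hlh-30(lf)* samples, and *lys-3* and *spp-20* are high there.

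Saposin-like proteins took the largest share of the reads among the 7 families. Summed over the 30 genes, they reached 1227 and 1256 CPM in fed and 3684 and 3615 CPM in starved wild-type worms, 2.94 times as high (log2 ratio 1.56 ± 0.03, SD, n = 2 in each group). In *hlh-30(lf)* the sum was 1160.0 and 1256 CPM in fed and 1847 and 1478 CPM in starved worms, 1.38 times as high (log2 ratio 0.46 ± 0.24). Both starved sums lay above the fed ones in each genotype, and the wild-type starved sums lay above all others. In *hlh-30(lf)*, *spp-14* alone made 70.4 to 73.8% of the starved sums and 27.4 to 27.5% of the fed ones. Per length, *spp-14* was the highest of the 99 genes in each of the 8 groups, from 832 RPKM (the CPM per kilobase of exon) in fed wild type to 3119.9 RPKM in starved *hlh-30(lf)*. In starved wild type it was followed by *spp-5* with 2111 RPKM, *spp-8* with 841 RPKM and *spp-18* with 406 RPKM. In starved *hlh-30(lf)* the next genes were *fipr-2* with 176 RPKM, *spp-8* with 149.9 RPKM and *cnc-4* with 141 RPKM, and *spp-5* had 78.1 RPKM.

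The antibacterial caenopores *spp-1*, *spp-3* and *spp-5* rose upon starvation in wild type and fell in *hlh-30(lf)*. *spp-5* (WBGene00004990, X:7319933-7320384 in WBcel235), which is active in the intestine, stood at 286 and 281 CPM in fed and 902 and 803 CPM in starved wild-type samples. In mutant worms it stood at 254 and 275 CPM in fed and 33.2 and 29.9 CPM in starved samples. Fed samples of the genotypes lay close together, the starved wild-type samples were the highest of all 16, and each starved mutant sample lay far under the fed ones. The log2 change upon starvation was 1.55 (SE 0.11, edgeR adjusted p = 2.58e-10) in wild type and -3.16 (SE 0.12, edgeR adjusted p = 8.78e-15) in *hlh-30(lf)*, and starved *hlh-30(lf)* differed from starved wild type by -4.82 (SE 0.13, edgeR adjusted p = 3.05e-17).

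*spp-1* (WBGene00004986, III:10355118-10355668) encodes a pore-forming caenopore that is also known as a target of the FOXO factor DAF-16. It was read at 29.4 and 31.6 CPM in fed and 111 and 115 CPM in starved wild type. In *hlh-30(lf)* it was read at 29.3 and 30.6 CPM in fed and 0.97 and 0.711 CPM in starved worms. The fed samples of both genotypes overlapped, while the starved mutant samples were at about 1 CPM or less and did not overlap any wild-type sample. The difference between starved genotypes was -7.15 (SE 0.34, edgeR adjusted p = 7.32e-08) on the log2 scale, the most negative among the 41 genes apart from *spp-2* with -7.22. *spp-2* lies in a cluster with *spp-3*, *spp-4*, *spp-5* and *spp-6* within 5.50 kb of the X chromosome. It stood at 31.5 and 31.8 CPM in starved wild type and 0.188 and 0.246 CPM in starved *hlh-30(lf)*, and it was lower in the mutant in each of the 4 states. Of the same cluster, *spp-3* stood at 144 and 145 CPM in starved wild type and 15.5 and 15 CPM in starved *hlh-30(lf)*, with a log2 difference of -3.31 (SE 0.15, edgeR adjusted p = 9.28e-12). Its starvation change in wild type was small, at 0.47 (SE 0.13, edgeR adjusted p = 0.00875), and was lost without fed replicate 1 (edgeR adjusted p = 0.0786) or starved replicate 2 (edgeR adjusted p = 0.0612) of wild type.

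*spp-8* and *spp-18* also rose strongly upon starvation of wild type. *spp-8* (WBGene00004993, IV:8481664-8483710), a saposin-like gene next to *spp-10*, went from 86.1 and 97 CPM in fed to 1141 and 1192 CPM in starved wild-type samples. In the mutant it went from 101 and 117 to 204 and 212 CPM. Starved samples lay above fed ones in both genotypes, and the mutant's starved samples lay far under those of wild type. Its log2 change was 3.64 (SE 0.11, edgeR adjusted p = 7.83e-19) in wild type and 0.84 (SE 0.10, edgeR adjusted p = 1.61e-07) in *hlh-30(lf)*, a difference of -2.79 (SE 0.15, edgeR adjusted p = 7.81e-14). *spp-18* (IV:9593693-9594425) went from 44.6 and 45 to 211 and 193 CPM in wild type but from 44.6 and 48.3 to 18.3 and 17.7 CPM in *hlh-30(lf)*, so that it rose in the first and fell in the second (interaction -3.59, SE 0.15, edgeR adjusted p = 1.21e-16). *spp-10*, the worm counterpart of prosaposin, the precursor of the lysosomal saposins that help to break down sphingolipids, stood at 212 and 209.7 CPM in starved wild type against 114 and 118 CPM in fed. In mutant worms it was 102 and 103 CPM in fed and 102 and 88.4 CPM in starved worms, and this change was not called (-0.20, SE 0.09, edgeR adjusted p = 0.0803).

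Not every saposin-like gene was lower in starved mutants. *spp-14* (WBGene00004999, X:7725955-7726388) rose in both genotypes, from 313 and 327 to 828 and 832 CPM in wild type and from 319 and 344 to 1362 and 1040.0 CPM in *hlh-30(lf)*. The starved mutant samples were above the starved wild-type ones, but this difference was not called (0.47, SE 0.18, edgeR adjusted p = 0.0665). *spp-20* (WBGene00005005, V:6556653-6558310) was under 2 CPM in each wild-type sample and in fed *hlh-30(lf)*. It was read at 59.1 and 30.5 CPM in starved *hlh-30(lf)*, at 83.8 and 95.6 CPM after CeMM for 3 hours and at 35.6 and 43.6 CPM after 15 hours. The starved genotypes differed by 5.36 (SE 0.41, edgeR adjusted p = 4.89e-06), and by 4.83 and 5.76 without the higher and the lower of the starved mutant samples, respectively. *spp-17* and *spp-23*, neighbours on chromosome I, fell in both genotypes and had no genotype difference called in fed or starved worms. *spp-23* was at 54.9 and 57.2 CPM in fed and 0.144 and 0.245 CPM in starved wild type, and at 55.2 and 57.4 CPM in fed and 0.125 and 0.246 CPM in starved *hlh-30(lf)*. Its fall was -8.17 and -8.28 on the log2 scale, and the genotype difference in starved worms was poorly determined (-0.11, SE 0.82, edgeR adjusted p = 1.0). In all, 16 spp genes were lower and 3 higher in the starved mutant than in starved wild type, where 19.3% and 18.8% of all genes were. The intestinal markers moved with them in part, as *ges-1*, *mtl-2*, *ifb-2* and *pept-1* were lower in the starved mutant (log2 -4.61, -4.48, -1.95 and -0.33), *elt-2* was higher (1.13) and *act-5* was not called. Their part in the result was not tested.

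**Figure D2:**
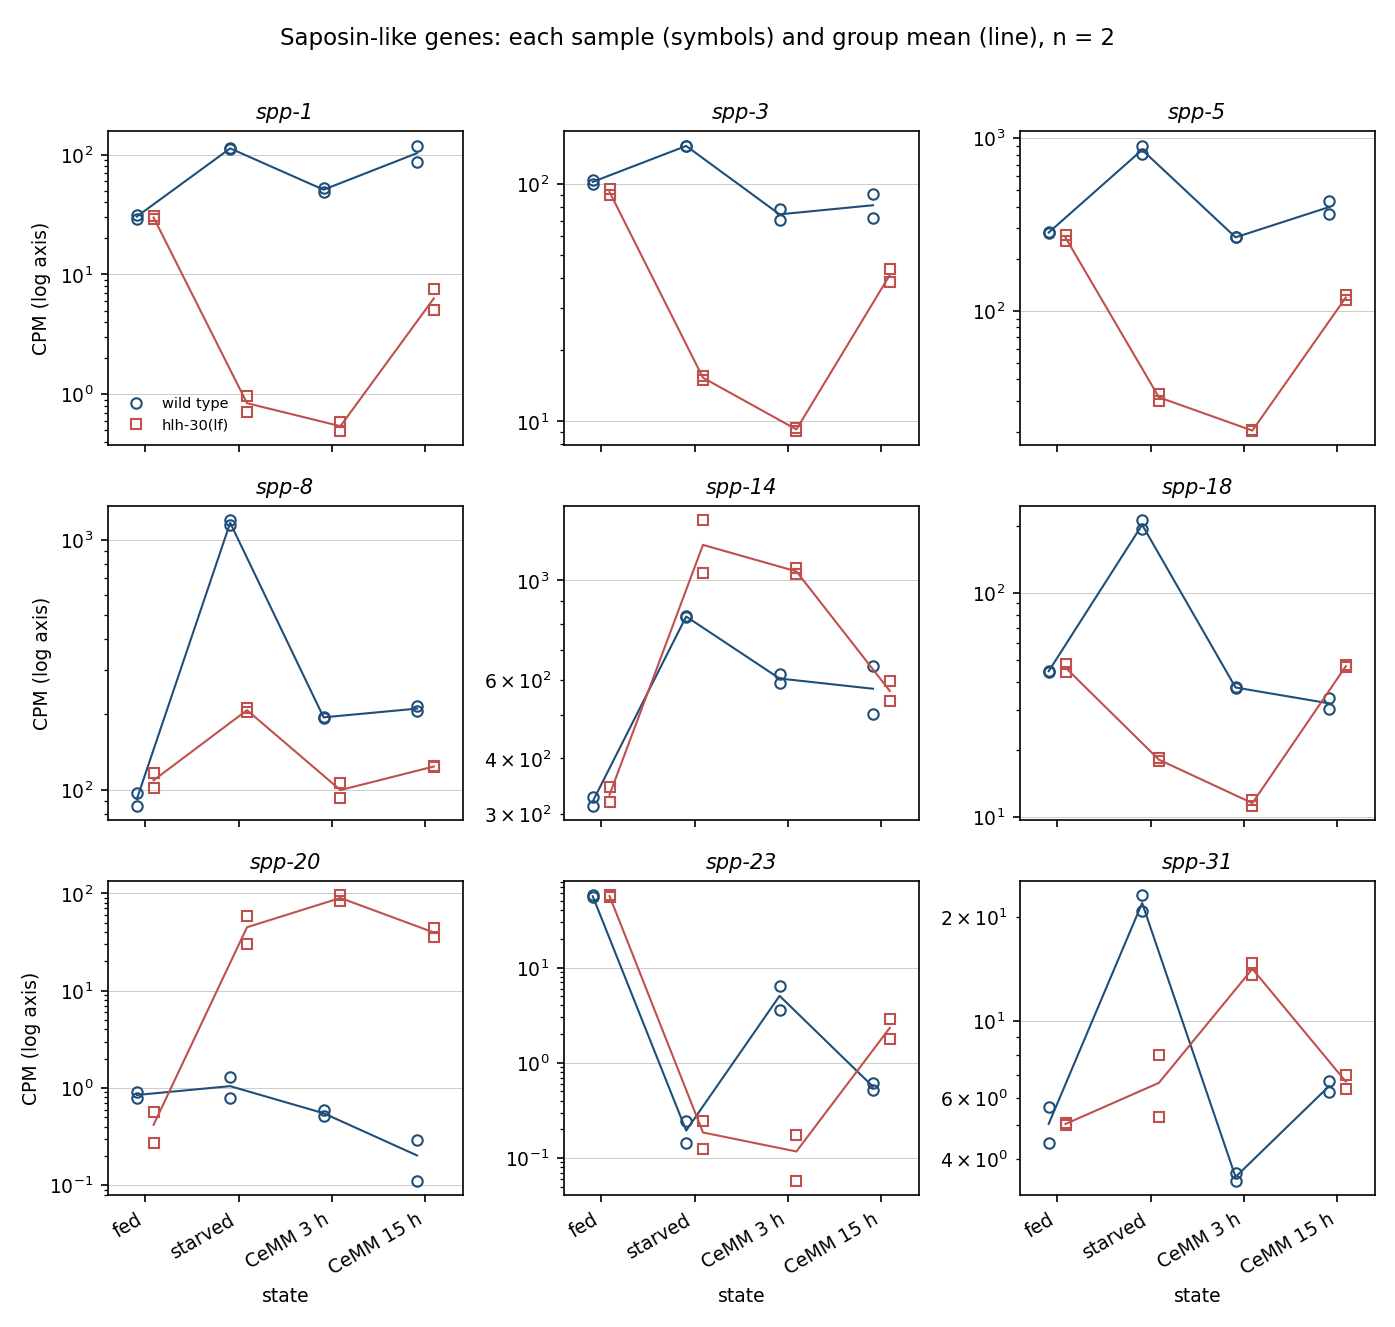
CPM (log axis) of 9 spp genes in each of the 16 samples, grouped by genotype and nutrient state; symbols are samples and lines are means of 2. *spp-1*, *spp-3*, *spp-5* and *spp-18* are high in starved wild-type samples and low in starved *hlh-30(lf)*, *spp-14* is high in both, and *spp-20* is above 2 CPM only in starved and refed *hlh-30(lf)*.

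The genes *spp-5*, *spp-8* and *spp-18*, which rose upon starvation of wild type, were lower again after 3 hours of CeMM. Of the 95 genes, 20 rose and 20 fell against starved wild-type worms (30.1% of all genes were called, 15% higher and 15.1% lower), and 14 of those that fell were spp genes. After 15 hours 18 rose and 15 fell (29.2% of all genes, 15.4% and 13.8%), 11 of the latter being spp genes. *spp-8* dropped to 195 and 194 CPM at 3 hours and stood at 206 and 216 CPM at 15 hours, with log2 changes of -2.63 (SE 0.11, edgeR adjusted p = 3.45e-16) and -2.26 (SE 0.11, edgeR adjusted p = 7.82e-15). *spp-18* dropped to 38 and 37.7 CPM and 30.4 and 34 CPM, below its fed level. *spp-5* dropped to 266 and 265 CPM at 3 hours, slightly under its level in fed wild type. It was at 365 and 430.2 CPM at 15 hours, above that level. The 6 intestinal markers summed to 2198 and 2422 CPM at 3 hours and 1572 and 1415 CPM at 15 hours, with 3 higher and 2 lower than in starved wild type at 3 hours and 4 higher and 2 lower at 15 hours, and their part in the result was not tested.

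In *hlh-30(lf)*, *spp-1*, *spp-3*, *spp-5* and *spp-18*, which were low in starved worms, rose by 15 hours of CeMM. After 3 hours 11 of the 95 genes rose and 14 fell against starved mutants (16.4% of all genes were called, 7.71% higher and 8.71% lower). These counts depended on single samples. The split into rises and falls shifted with the starved replicate left out, and the total was lowest without replicate 2 of the CeMM 3 h mutants. After 15 hours 31 rose and 9 fell (30.8% of all genes, 15.6% and 15.1%), and 13 of the 31 were spp genes. *spp-5* was 20.1 and 20.4 CPM at 3 hours and 123 and 115 CPM at 15 hours, which lay above starved (1.90, SE 0.12, edgeR adjusted p = 3.95e-11) but under the fed mutant samples. *spp-1* was at 0.491 and 0.589 CPM at 3 hours, which was not called against starved (-0.64, SE 0.57, edgeR adjusted p = 0.636), and at 7.63 and 5.01 CPM at 15 hours (2.89, SE 0.38, edgeR adjusted p = 2.36e-04). *spp-18* reached 46.7 and 47.6 CPM, the level of its fed samples. The 6 intestinal markers rose in part with these genes, from 874 and 827 CPM in starved to 1985 and 1919 CPM in CeMM 15 h mutants, with 4 called higher and none lower, and their part in this was not tested either. The change from starved to CeMM 15 h was more positive in the mutant for 12 spp genes and more negative for none, of 28 genes called in this interaction (17 and 11, beside 10.4% and 12% or together 22.4% of all genes), among them *spp-18* (3.81, SE 0.15, edgeR adjusted p = 1.84e-16) and *spp-5* (2.79, SE 0.16, edgeR adjusted p = 3.94e-11). *spp-31* went in opposite directions in the genotypes at 3 hours, from 23.2 and 20.8 to 3.63 and 3.45 CPM in wild type and from 7.98 and 5.28 to 13.6 and 14.7 CPM in *hlh-30(lf)*, where the changes differed by 3.76 (SE 0.21, edgeR adjusted p = 1.09e-13). The refed genotypes still differed after 15 hours, with 11 spp genes lower and 4 higher in the mutant, where 12.4% and 11.7% of all genes were. *spp-5* then differed by -2.03 and *spp-1* by -4.34 on the log2 scale.

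Most lys genes fell upon starvation. The 10 lys genes summed to 673 and 688 CPM in fed and 150.1 and 175 CPM in starved wild type (log2 ratio -2.07 ± 0.16, SD), and to 768 and 882 CPM in fed and 373 and 294 CPM in starved *hlh-30(lf)* (log2 ratio -1.31 ± 0.28). The starved sums lay under the fed ones in each genotype, and the starved mutant sums lay above those of starved wild type. *lys-1* (WBGene00003090, V:10277827-10279127), an intestinal lysozyme, lies in a cluster with *lys-2* and *lys-3* on chromosome V. *lys-1* went from 337 and 351 CPM in fed to 22.3 and 25.4 CPM in starved wild type. In *hlh-30(lf)* it went from 389 and 459 to 73.3 and 60.1 CPM. All starved samples lay under all fed ones, and the log2 changes of -3.89 (SE 0.16, edgeR adjusted p = 3.52e-11) in wild type and -2.76 (SE 0.15, edgeR adjusted p = 9.82e-10) in *hlh-30(lf)* differed by 1.13 (SE 0.20, edgeR adjusted p = 4.90e-04). *lys-2* fell from 92.5 and 97.5 to 3.58 and 4.54 CPM in wild type and from 140.0 and 161 to 17.7 and 17.5 CPM in *hlh-30(lf)*, a larger fall in wild type (interaction 1.4, SE 0.27, edgeR adjusted p = 0.00219).

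The third gene of the cluster went against its neighbours in *hlh-30(lf)*. *lys-3* (WBGene00003092, V:10282204-10283448) stood at 15.1 and 13.3 CPM in fed and 8.13 and 6.93 CPM in starved wild-type samples, and at 12.9 and 10.9 CPM in fed and 129 and 74.7 CPM in starved *hlh-30(lf)*. The starved mutant samples were the highest of all 16 but differed from each other. The starved genotypes differed by 3.69 (SE 0.23, edgeR adjusted p = 2.50e-07), and by 3.27 and 4.03 when the higher and the lower mutant sample was left out. In refed mutants *lys-3* was 67.4 and 70.1 CPM at 3 hours and 20.2 and 22.6 CPM at 15 hours, and every refed wild-type sample was under 5 CPM. It was the single gene of the 95 that was called lower upon starvation of wild type and higher upon starvation of *hlh-30(lf)*, and its fall in wild type (-0.95, SE 0.23, edgeR adjusted p = 0.00677) was lost without wild-type starved replicate 2 (edgeR adjusted p = 0.0512).

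Other lysozymes depended on genotype in their own ways. *lys-7*, which is widely used as a readout of intestinal immunity, was higher in *hlh-30(lf)* in each of the 4 states. It stood at 20.3 and 20.9 CPM in fed and 10.5 and 11.8 CPM in starved wild type, and at 38.5 and 45.3 CPM in fed and 38.4 and 42.2 CPM in starved *hlh-30(lf)*. No mutant sample overlapped a wild-type one, and the log2 difference was 1.01 (SE 0.15, edgeR adjusted p = 4.63e-04) in fed, 1.78 (SE 0.15, edgeR adjusted p = 6.31e-08) in starved and 2.82 (SE 0.16, edgeR adjusted p = 8.10e-10) in CeMM 15 h worms. *lys-4* stood at 5.74 and 7.55 CPM in starved wild type and at 0.344 and 0.164 CPM in starved *hlh-30(lf)* (-4.79, SE 0.48, edgeR adjusted p = 1.65e-05), after 38.9 and 36.7 CPM in fed wild type and 15.4 and 18.4 CPM in fed *hlh-30(lf)*. *ilys-5*, a lysozyme of the invertebrate type, fell from 143 and 139 to 5.68 and 4.67 CPM in wild type and from 66.2 and 73 to 0.782 and 0.465 CPM in *hlh-30(lf)*. These falls, -4.80 (SE 0.15, edgeR adjusted p = 8.11e-16) and -6.90 (SE 0.20, edgeR adjusted p = 1.68e-16), were the largest of the lysozymes that reach 10 CPM, and the fall was larger in the mutant (interaction -2.10, SE 0.27, edgeR adjusted p = 3.51e-06). *lys-8* stood at 99.7 and 118 CPM in starved wild type and 114 and 99.3 CPM in starved *hlh-30(lf)*, a difference that was not called (-0.10, SE 0.10, edgeR adjusted p = 0.554).

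The level of *lys-1* was back near that of fed worms after 3 hours of CeMM in wild type but not in *hlh-30(lf)*. It was at 336 and 307 CPM after 3 hours and 188 and 205 CPM after 15 hours in wild type. In the mutant it was at 35.9 and 30.7 CPM after 3 hours, under its starved level, and at 469 and 522 CPM after 15 hours, the highest samples of all. The change from starved to 3 hours was 3.71 (SE 0.15, edgeR adjusted p = 1.14e-10) in wild type and -1.02 (SE 0.14, edgeR adjusted p = 1.49e-04) in *hlh-30(lf)*, and these differed by -4.73 (SE 0.21, edgeR adjusted p = 5.51e-10). At 15 hours the changes were 3.25 (SE 0.15, edgeR adjusted p = 5.73e-10) and 2.88 (SE 0.15, edgeR adjusted p = 1.24e-09), and their difference was not called (-0.37, SE 0.20, edgeR adjusted p = 0.256). *lys-2* was at 49.5 and 39.2 CPM in wild type and 7.25 and 4.89 CPM in *hlh-30(lf)* at 3 hours (interaction -4.95, SE 0.29, edgeR adjusted p = 1.78e-07), and at 16.4 and 18.6 CPM and 33.9 and 32.2 CPM at 15 hours (interaction -1.42, SE 0.28, edgeR adjusted p = 0.00301). All its refed samples lay under the fed ones of their genotype. *lys-8* rose at 3 hours in wild type, to 253 and 263 CPM, but stood at 122 and 108 CPM in *hlh-30(lf)*, and at 15 hours it was 283 and 269.8 CPM in wild type and 389 and 347 CPM in *hlh-30(lf)*. In total, 6 of 10 lys genes rose and 2 fell at 3 hours in wild type, where 15% and 15.1% of all genes did. The 6 include *lys-5* and *lys-6*, whose group means never passed 0.31 CPM. In *hlh-30(lf)* none rose and 2 fell at 3 hours (7.71% and 8.71% of all genes). At 15 hours 3 rose and 1 fell in wild type (15.4% and 13.8%), and 5 rose and 1 fell in *hlh-30(lf)* (15.6% and 15.1%). *ilys-5* was 4.53 and 5.58 CPM in wild type and 11.3 and 11.1 CPM in *hlh-30(lf)* after 15 hours, having been 11.7 and 11.7 CPM in the former and 0.202 and 0.412 CPM in the latter at 3 hours.

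**Figure D3:**
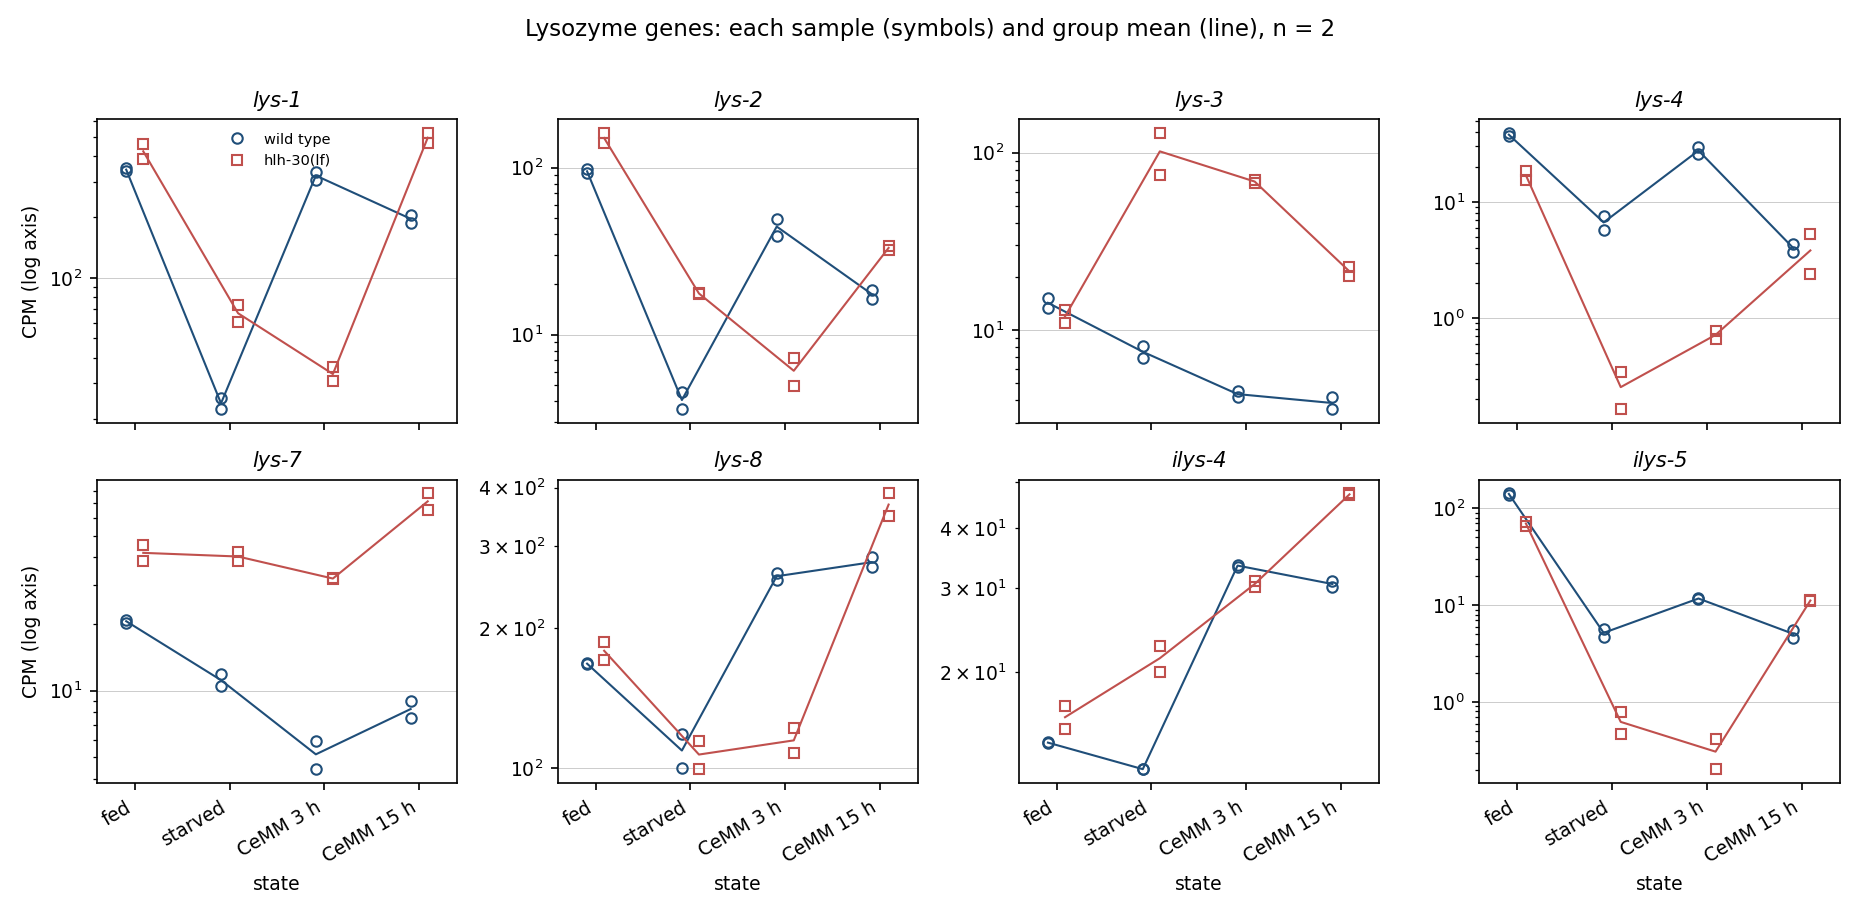
CPM (log axis) of 6 lys and 2 ilys genes in each of the 16 samples, with symbols for samples and lines for means of 2. *lys-1* is low in starved worms of both genotypes and near its fed level at CeMM 3 h in wild type and above it at 15 h in *hlh-30(lf)*, *lys-2* stays under its fed level in refed samples of both, and *lys-3* and *lys-7* are higher in starved and refed *hlh-30(lf)* samples than in those of wild type.

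The lysozymes *lys-5* and *ilys-2*, which are known as genes that need HLH-30 for their induction during infection with Staphylococcus aureus, were barely read in these larvae. *lys-5* was at most 0.434 CPM in any sample, and it had no count in both *hlh-30(lf)* samples at CeMM 3 h. The wild-type mean, from 7 and 17 counts, was then at least 3.5-fold higher against a limit of 3 counts per sample. At CeMM 15 h both *hlh-30(lf)* samples again had no count of *lys-5*, but the wild-type mean of 0.04 CPM lay under that limit and gives no bound. *ilys-2* was 0.716 and 0.913 CPM in fed and 0.375 and 0.217 CPM in starved wild type. It was 0.269 and 0.411 CPM in fed *hlh-30(lf)* and had no count in both starved samples, where the wild-type mean, from 13 and 8 counts, was at least 3.37-fold higher. The wild-type samples lay above the mutant ones in each state, and *ilys-2* and *spp-2* were the genes called lower in *hlh-30(lf)* in all 4 states, as 0.842% of all genes were. The fed call of *ilys-2* was lost in some of the fits without a single sample.

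Of the 11 caenacin genes, 7 fell and 2 rose upon starvation of wild type (20.1% and 20.1% of all genes), and 4 fell and 1 rose in *hlh-30(lf)* (19.1% and 18.4%). The 11 cnc genes summed to 107 and 110.0 CPM in fed and 49.6 and 46.2 CPM in starved wild type, and to 166 and 176 CPM in fed and 171 and 140.5 CPM in starved *hlh-30(lf)*. Thus the mutant sums lay above the wild-type ones in both states, by more in starved worms. In starved larvae 6 cnc genes were raised and none reduced in the mutant, at CeMM 3 h 8 and none, and at CeMM 15 h 6 and none, where 18.8%, 17.7% and 11.7% of all genes were higher. *cnc-3* (WBGene00000557, V:1448031-1448794), in a cluster of 6 caenacins on chromosome V, went from 19.2 and 18.5 to 1.44 and 1.28 CPM in wild type. In mutant worms it went from 24 and 26 to 13.4 and 10.8 CPM, so that the starved samples of the genotypes lay well apart. Its log2 change was -3.83 (SE 0.28, edgeR adjusted p = 3.93e-07) in wild type and -1.14 (SE 0.21, edgeR adjusted p = 0.00114) in *hlh-30(lf)*, and starved genotypes differed by 3.08 (SE 0.28, edgeR adjusted p = 3.60e-06).

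*cnc-4*, in the same cluster, was the caenacin with the highest level per length in starved mutants. It was 1.56 and 3.1 CPM in starved wild type and 60.8 and 54.3 CPM in starved *hlh-30(lf)*, with 14.1 and 17.2 CPM in fed wild type and 22.4 and 25.1 CPM in fed *hlh-30(lf)*. Its replicates varied, most of all in wild type at CeMM 15 h with 2.69 and 19.4 CPM, against 77.6 and 92.8 CPM in *hlh-30(lf)*. The starved genotypes differed by 4.55 (SE 0.88, edgeR adjusted p = 0.00274). The difference at CeMM 15 h was 2.58 (SE 0.74, edgeR adjusted p = 0.0347), and it was 1.73 without wild-type replicate 1 and 4.82 without replicate 2. This call was lost without any 1 of the fed or of the refed mutant samples (edgeR adjusted p from 0.0508 to 0.113), though not without the other samples. *cnc-8* lies beside *fip-5* and *fipr-21* on the X chromosome, and the 3 genes fell upon starvation of both genotypes. Upon starvation of wild type *cnc-8* fell from 24 and 26.6 to 4.01 and 2.85 CPM, *fip-5* from 68.2 and 64.8 to 4.09 and 5.87 CPM and *fipr-21* from 157 and 161 to 17.1 and 16.7 CPM. In starved *hlh-30(lf)* *cnc-8* was 23.8 and 20.4 CPM, *fip-5* 16.8 and 11.9 CPM and *fipr-21* 53.5 and 43.3 CPM, above every starved wild-type sample. Their starved genotype differences were 2.62 (SE 0.21, edgeR adjusted p = 2.89e-07) for *cnc-8*, 1.45 (SE 0.21, edgeR adjusted p = 9.81e-05) for *fip-5* and 1.45 (SE 0.16, edgeR adjusted p = 7.91e-06) for *fipr-21*. *cnc-7* and *cnc-11* were the 2 caenacins that rose upon starvation of wild type, *cnc-11* from 4.36 and 4.93 to 24.6 and 20.2 CPM, the starved mutant samples being 23.2 and 19.3 CPM.

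Among the fungus-induced proteins, some were higher and some lower in starved mutants. *fip-6* (I:8945473-8946200) was 0.317 and 1.17 CPM in starved wild type and 12.2 and 8.62 CPM in starved *hlh-30(lf)*, and 0.417 and 1.66 CPM against 61.5 and 72.3 CPM at CeMM 15 h. Its samples of the genotypes did not overlap, and the difference was 3.71 (SE 0.68, edgeR adjusted p = 0.00197) in starved and 5.66 (SE 0.60, edgeR adjusted p = 1.07e-04) in CeMM 15 h worms. *fipr-1* and *fipr-2*, neighbours on chromosome V, were lower in the mutant. *fipr-1* stood at 68.8 and 70.6 CPM in starved wild type and 16.4 and 15.3 CPM in starved *hlh-30(lf)*, after 91.5 and 86.9 CPM in fed wild type and 74.9 and 76.9 CPM in fed *hlh-30(lf)*. Its difference was -2.20 (SE 0.11, edgeR adjusted p = 6.18e-15) in starved and -3.96 (SE 0.12, edgeR adjusted p = 1.46e-19) in CeMM 3 h worms. *fipr-2* was 102 and 95.1 CPM in starved wild type and 74 and 64.3 CPM in starved *hlh-30(lf)*, a smaller difference of -0.57 (SE 0.10, edgeR adjusted p = 3.26e-05). *fip-2* rose upon starvation in wild type, from 24.6 and 24 to 51.2 and 48.4 CPM, and fell in *hlh-30(lf)*, from 22.4 and 24.9 to 14.7 and 12.4 CPM (interaction -1.89, SE 0.19, edgeR adjusted p = 6.24e-08). *fipr-22*, *fipr-23* and *fipr-24* lie together on chromosome I and may share reads, which makes their single values uncertain. The starved samples held 1.33 and 1.55 CPM of *fipr-22* in wild type and 16.8 and 17.2 CPM in *hlh-30(lf)*. The 5 epidermal markers were 96.9 and 89.1 CPM in starved wild type and 245 and 246 CPM in starved *hlh-30(lf)*, with *lin-26* called higher and *dpy-5* called lower in the mutant and the other 3 not called, and their part in the result was not tested.

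After 15 hours of CeMM 3 of the 11 cnc genes rose and 1 fell in wild type, where 15.4% and 13.8% of all genes did, and 5 rose and 2 fell in *hlh-30(lf)*, where 15.6% and 15.1% did. *cnc-3* was 6.87 and 4.47 CPM at 3 hours and 10.9 and 14.9 CPM at 15 hours in wild type, and 13.3 and 15.1 CPM at 3 hours and 41 and 37.5 CPM at 15 hours in *hlh-30(lf)*. The rise at 15 hours was 3.46 (SE 0.28, edgeR adjusted p = 2.10e-06) in wild type and 1.69 (SE 0.21, edgeR adjusted p = 7.60e-05) in *hlh-30(lf)*, larger in wild type by the interaction (-1.78, SE 0.36, edgeR adjusted p = 0.00375). Levels were still higher in the mutant, by 1.30 (SE 0.21, edgeR adjusted p = 6.83e-04). *cnc-8* rose to 16.4 and 21.7 CPM in wild type and stood at 31.4 and 33 CPM in *hlh-30(lf)*, where the genotype difference was not called (0.46, SE 0.18, edgeR adjusted p = 0.0904).

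**Figure D4:**
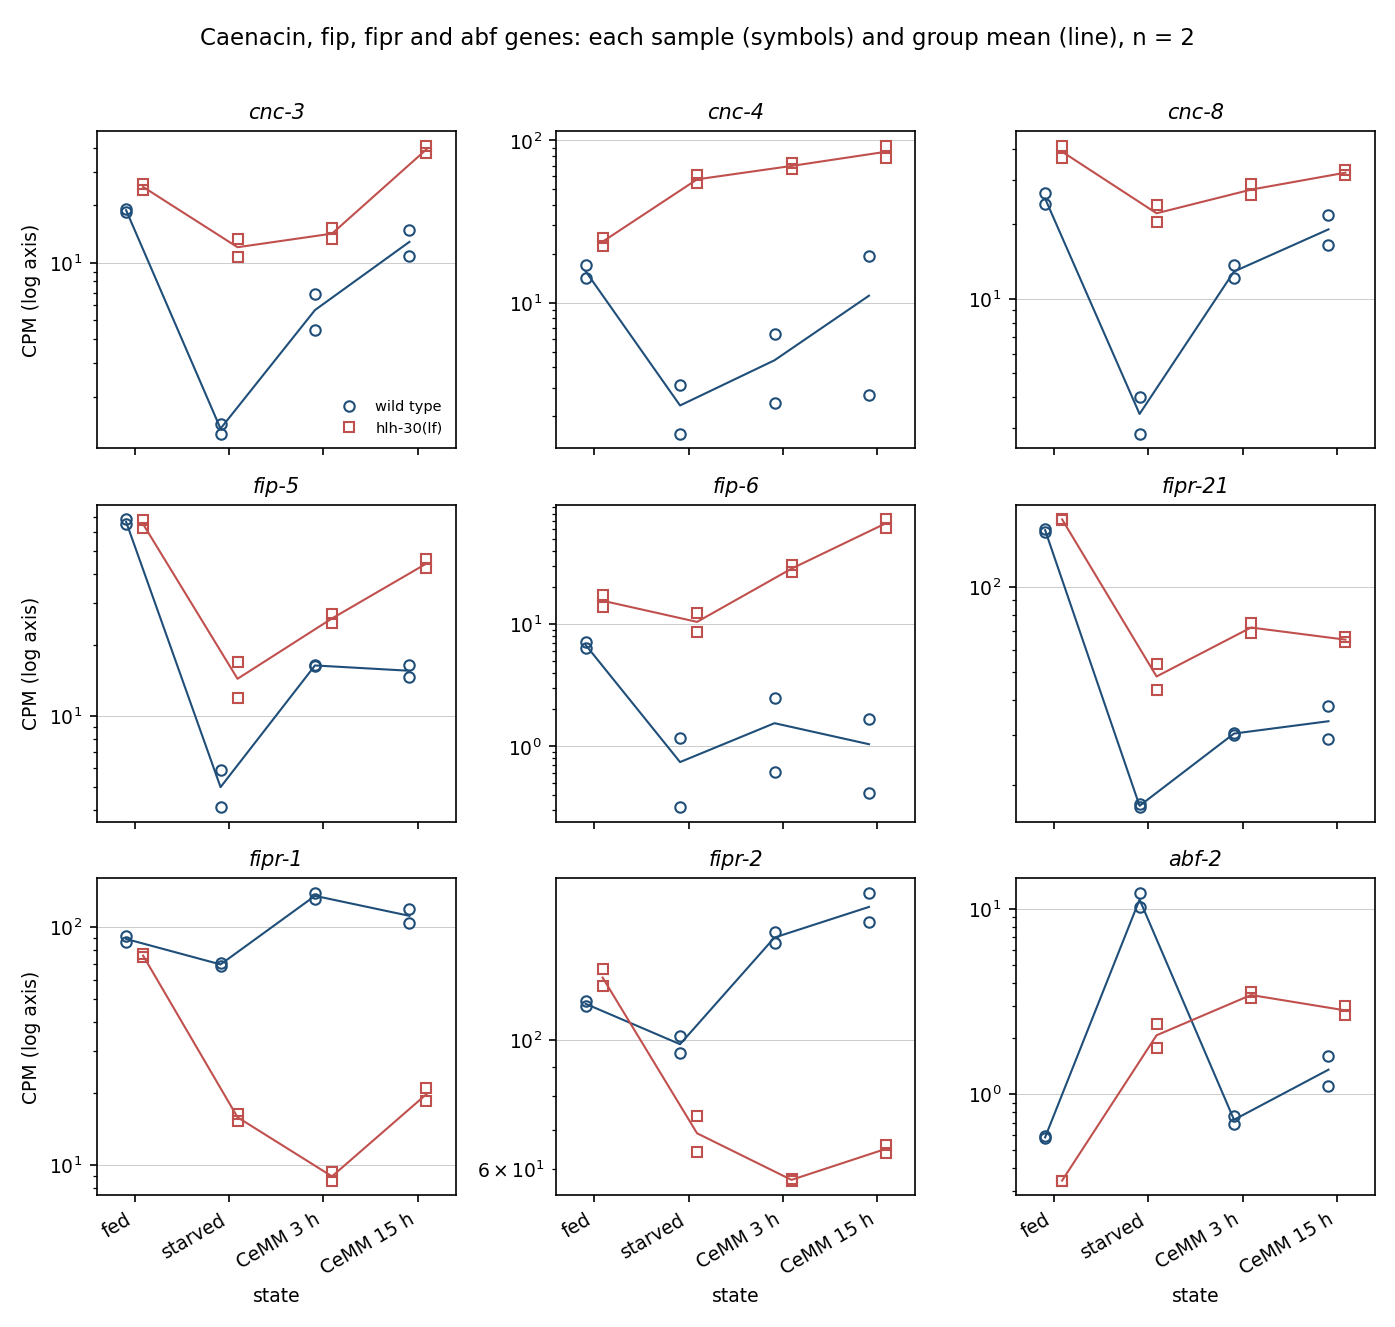
CPM (log axis) of 9 peptide genes in each of the 16 samples, with symbols for samples and lines for means of 2. *cnc-3*, *cnc-8*, *fip-5* and *fipr-21* dip in starved wild type and stay higher in starved *hlh-30(lf)*, *fip-6* and *cnc-4* are higher in starved and refed *hlh-30(lf)*, and *fipr-1* is lower there.

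Of the 6 defensin-like abf genes, 3 rose and 2 fell upon starvation of wild type (20.1% and 20.1% of all genes), and 2 rose and 2 fell in *hlh-30(lf)* (18.4% and 19.1%). The 6 genes summed to 32.9 and 36.3 CPM in fed and 59.4 and 62 CPM in starved wild type, and to 49.3 and 52.9 CPM in fed and 99.8 and 82.6 CPM in starved *hlh-30(lf)*. *abf-2* (WBGene00000013, I:3885548-3885961), whose peptide kills bacteria and yeast in vitro, went from 0.592 and 0.578 to 12.2 and 10.2 CPM in wild type. In *hlh-30(lf)* it went from 0.342 and 0.342 to 2.38 and 1.78 CPM. Starved samples lay above fed ones in both, with log2 changes of 4.21 (SE 0.20, edgeR adjusted p = 5.00e-16) and 2.49 (SE 0.28, edgeR adjusted p = 1.64e-08), and the change was smaller in the mutant (-1.72, SE 0.42, edgeR adjusted p = 0.00191). The 5 pharynx markers summed to 5809 and 6097 CPM in starved wild type and 2219 and 3327.5 CPM in starved *hlh-30(lf)*. Of these markers 4 were called lower and 0 higher in the starved mutant, and their part in the result was not tested. At CeMM 3 h *abf-2* was back at 0.766 and 0.69 CPM in wild type but stood at 3.55 and 3.3 CPM in *hlh-30(lf)* (interaction 4.69, SE 0.26, edgeR adjusted p = 1.47e-13). *abf-5*, one of a pair of neighbours on the X chromosome, was higher in starved mutants, at 49.8 and 40.7 CPM against 16.1 and 16.9 CPM in starved wild type (1.38, SE 0.12, edgeR adjusted p = 6.81e-11), and remained apart at CeMM 15 h with 43.6 and 44.7 CPM against 13.1 and 14.5 CPM. Its neighbour *abf-6* rose at CeMM 15 h in both genotypes, to 65.1 and 70.1 CPM in wild type and 102 and 108 CPM in *hlh-30(lf)*.

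Changes upon starvation set side by side for the genotypes, which share no samples in these comparisons, gave 8 genes called higher in both and 30 called lower in both, as were 9.35% and 12.8% of all genes. Another 6 rose in wild type and fell in *hlh-30(lf)*, namely *spp-1*, *spp-2*, *spp-3*, *spp-5*, *spp-18* and *fip-2*, and 1 did the reverse, *lys-3* (2.29% and 3.23% of all genes). The 6 include *spp-1*, *spp-3* and *spp-5*, whose pore-forming activity was described above. At CeMM 3 h, 3 genes rose in wild type and fell in *hlh-30(lf)*, namely *lys-1*, *lys-2* and *fipr-1*, and 4 did the reverse, namely *spp-10*, *spp-28*, *spp-31* and *abf-2* (2.08% and 1.24% of all genes). At CeMM 15 h, 11 rose in both, among them *lys-1*, *lys-2* and *lys-8*, where 8.08% of all genes did. Another 4, *spp-3*, *spp-5*, *spp-18* and *spp-28*, fell in wild type and rose in *hlh-30(lf)*, where 1.65% of all genes did. The change from starved to CeMM 3 h differed by genotype for 28 genes, 12 more positive and 16 more negative in *hlh-30(lf)* (21.8% of all genes, 10.3% and 11.5%).

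**Figure D5:**
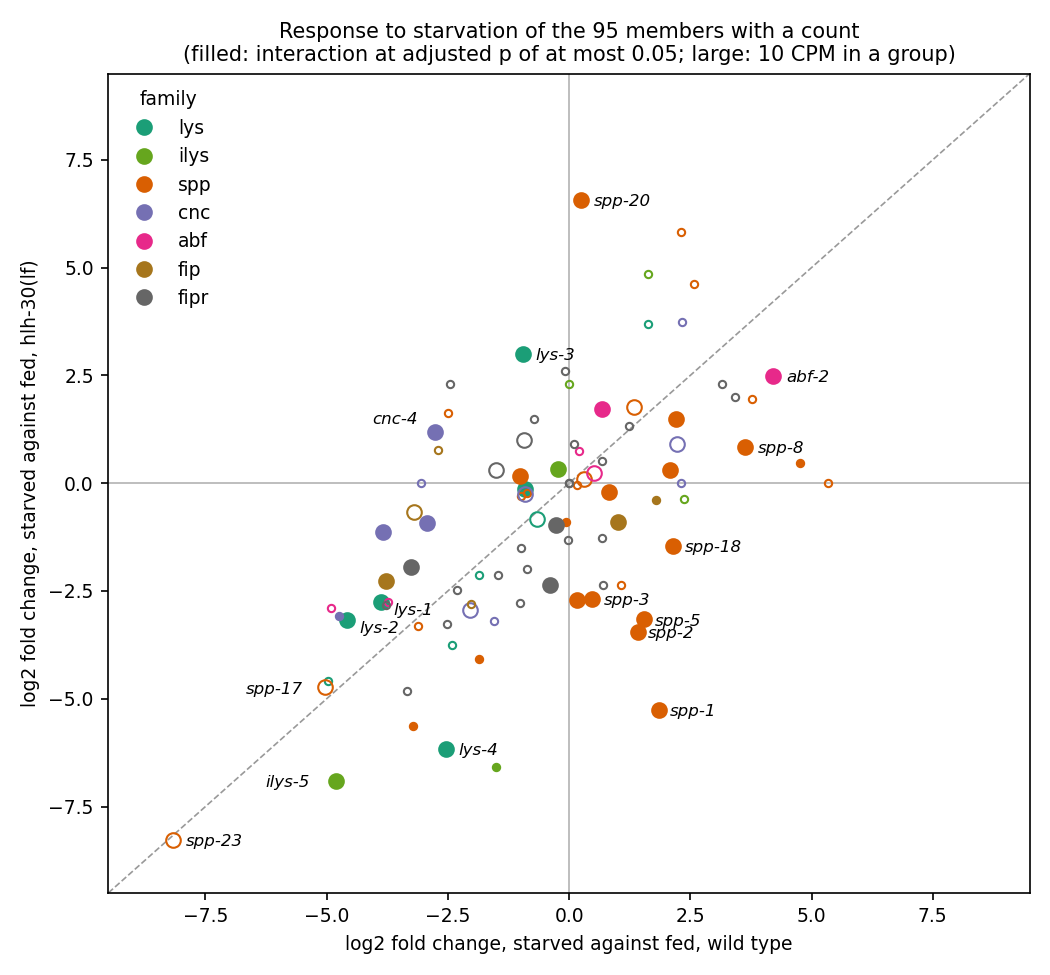
Log2 change upon starvation of each of the 95 tested genes in wild type (x axis) and *hlh-30(lf)* (y axis), with filled symbols for the 36 genes whose change differed between the genotypes, large symbols for genes reaching 10 CPM and a dashed line where both changes are equal. *spp-1*, *spp-2* and *spp-5* lie at the lower right and *spp-20* and *lys-3* lie above the line.

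Genotype differences were counted within each nutrient state. In fed worms 13 of the 95 genes were called, 7 of them higher in the mutant and 6 lower, beside 4.42% of all genes (2.26% and 2.16%). This count was 6 or 7 without wild-type fed replicate 1 or 2 and 8 without either mutant fed sample. In starved worms 53 were called, 26 higher and 27 lower, beside 38.1% of all genes (18.8% and 19.3%). At CeMM 3 h 61 were called, 28 higher and 33 lower (36.2% of all genes, 17.7% and 18.6%), and at CeMM 15 h 47 were called, 27 higher and 20 lower (24% of all genes, 11.7% and 12.4%). In the starved and both refed states, whose samples are separate, 16 genes were higher in *hlh-30(lf)* each time and 16 were lower each time, beside 6.67% and 6.63% of all genes. The 16 that were higher held *lys-3*, *lys-7*, *spp-20*, *spp-28*, *cnc-2*, *cnc-3*, *cnc-4*, *cnc-10*, *abf-3*, *abf-4*, *abf-5*, *fip-5*, *fip-6*, *fipr-21*, *fipr-24* and *fipr-26*. The 16 that were lower held *ilys-2*, *ilys-3*, *spp-1*, *spp-2*, *spp-3*, *spp-5*, *spp-6*, *spp-8*, *spp-10*, *spp-15*, *spp-16*, *fip-2*, *fip-4*, *fipr-1*, *fipr-2* and *fipr-10*. The exons of *spp-15* and *spp-16* overlap those of the genes *C48E7.6* and *F32D8.7*, which makes their values uncertain. *spp-28*, a saposin-like gene of low level, was at 5.42 and 4.87 CPM in fed, 2.83 and 2.42 CPM in starved and 0.944 and 1.2 CPM in CeMM 15 h samples of wild type. In *hlh-30(lf)* these samples had 4.71 and 5.34 CPM, 7.07 and 5.01 CPM and 11.4 and 11.7 CPM, so that the genotypes overlapped when fed and stood apart afterwards. The 54 genes that had a count but never reached 10 CPM, of which *spp-4* was the highest with a mean of 9.67 CPM in fed wild type, gave 7 higher and 19 lower upon starvation of wild type (20.1% and 20.1% of all genes). When the starved mutant was set against wild type, 8 of the 54 were higher and 11 lower, beside 18.8% and 19.3% of all genes.

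Genes that act upstream of these effectors were read in the same samples. In the p38 MAP kinase cascade the adaptor TIR-1 acts through NSY-1, SEK-1 and PMK-1 to drive intestinal immune genes. The 7 listed genes were *tir-1*, *nsy-1*, *sek-1*, *pmk-1*, *atf-7*, *skn-1* and *vhp-1*, so that activating and restraining genes were counted together. Of these, 7 were higher and 0 lower upon starvation of *hlh-30(lf)*, against 3 and 4 in wild type. Over all genes the shares were 18.4% and 19.1% in *hlh-30(lf)* and 20.1% and 20.1% in wild type. Those shares include genes with few reads, whereas the 7 summed to 4057 and 4247.5 CPM in starved *hlh-30(lf)*. *tir-1* was at 604 CPM in starved *hlh-30(lf)* and 126 CPM in starved wild type (group means, log2 difference 2.20, SE 0.09, edgeR adjusted p = 2.05e-17). *vhp-1*, the phosphatase that restrains this cascade, was at 1547 CPM in starved *hlh-30(lf)* and 305 CPM in starved wild type. The MAP kinase kinase kinase *nsy-1* was lower in the mutant, at 245 against 433 CPM. Of 6 transcription factors of intestinal immunity, starved mutants had 4 at a higher and 1 at a lower level (over all genes 18.8% and 19.3%), with *zip-2* at 1975 against 456 CPM and the GATA factor *elt-7* at 5.96 against 12.8 CPM. These 6 include *hlh-30* itself, whose whole-gene count covers exons outside the deletion, and *elt-2*, which is also among the intestinal markers.

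In the epidermis, fungal infection acts through the kinase-like protein NIPI-3 and the STAT-like factor STA-2. The TGF-beta ligand DBL-1 regulates caenacins there through the Smad SMA-3. Of 9 genes of epidermal antifungal signalling, starved mutants had 5 at a higher and 3 at a lower level (over all genes 18.8% and 19.3%), with *nipi-3* at 1346 against 239 CPM and *cebp-1* at 519.8 against 75.7 CPM. The log2 differences were 2.43 (SE 0.08, edgeR adjusted p = 7.37e-19) for *nipi-3* and 2.71 (SE 0.11, edgeR adjusted p = 1.03e-16) for *cebp-1*. Of 7 genes of the DBL-1 pathway, 4 were raised and 3 reduced in the starved mutant, beside the same shares of all genes. These 7 were listed for the pathway at large and not for its action on caenacins. The Smad *sma-3* was at 79.7 against 22.1 CPM. The 10 neuropeptide-like antimicrobial peptides of the *nlp-29* group, which the epidermis also makes, had 1 higher and 7 lower upon starvation of wild type and 0 and 8 in the mutant, where over all genes 20.1% and 20.1% and then 18.4% and 19.1% were called. Between the starved genotypes 3 of them were raised and 1 was reduced in the mutant (18.8% and 19.3% of all genes), and the difference of *nlp-29* itself was not called (-0.18, SE 0.39, edgeR adjusted p = 0.829).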

How the data were processed

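Whole L1 larvae of 2 genotypes and 4 nutrient states were sequenced, with 2 samples per group (16 in all), as single-end reads of 50 nucleotides. The authors aligned them with STAR 2.0.4b and deposited, for each of 46726 genes of Ensembl release 76 (WBcel235), the count of uniquely aligned, unambiguous reads from featureCounts (1.4.5 in the methods, 1.45 in the labels). The deposited CPM is that count scaled by the total count of the sample, and the deposited RPKM is the CPM per kilobase of exon; both were recomputed from the counts and matched. Uniquely aligned reads understate genes with near-identical copies. Whether strand was used is not given in the sources used here. Symbols came from a gene names table.

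The 30177 genes with a count in any sample were normalized by TMM and tested with edgeR's quasi-likelihood test (edgeR 4.0.16, R 4.3.3) with its newer dispersion method, robust estimation and 1 coefficient per group. P-values were adjusted by Benjamini-Hochberg over all of them, and genes with an adjusted p of at most 0.05 were called higher or lower ("rose", "fell"). The standard error (SE) of a log2 change was taken as its size over the root of F. Interactions compare the changes of the genotypes. The fit was tested on simulated data. Intervals and floors of 3 counts cover counting error only.

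The genes, lists and tests were chosen with earlier results of these data known. Genes named with values reach a group mean of 10 CPM, and comprise in each comparison the up to 6 that rose most and the up to 6 that fell most whose groups do not overlap, plus *lys-5*, *ilys-2*, *spp-10*, *lys-7*, *lys-8*, *spp-1* and *spp-5*; other genes, those of the lists included, were singled out after their values were seen. Alternatives were DESeq2 1.42.0, limma-voom (limma 3.58.1, the method of the paper), edgeR's legacy method, RLE factors, filterByExpr, a fit of just the groups compared, removal of rRNA genes, a replicate block and each sample left out. The tables were summarised and drawn in Python 3.11.15, pandas 2.3.3, numpy 2.4.6 and matplotlib 3.10.9. No genome or promoter sequence was used here.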

Additional observations from a re-analysis of the deposited data

Results flagged for a closer look

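The change upon starvation differed between *hlh-30(lf)* and wild type for 36 of the 95 genes by edgeR's interaction test. Log2 differences, as the change in *hlh-30(lf)* minus that in wild type, were positive for *spp-20* (6.31), *cnc-4* (3.96), *lys-3* (3.95), *cnc-3* (2.69), *cnc-8* (2.01), *fip-5* (1.49) and *lys-7* (0.77). They were negative for *spp-1* (-7.11), *spp-2* (-4.86), *spp-5* (-4.71), *lys-4* (-3.62), *spp-18* (-3.59), *spp-3* (-3.15) and *spp-10* (-1.03). *ilys-2* had a fitted difference of -5.08, which is no bound because both starved mutant samples were at 0. The calls of *cnc-4* and *lys-7* were lost in some of the fits without a single sample.

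For the change from starved to CeMM 3 h, 28 genes differed. The difference was positive for *abf-2* (4.69), *spp-31* (3.76), *cnc-11* (2.92), *spp-18* (1.80), *spp-8* (1.55), *spp-5* (1.07), *spp-10* (0.95) and *lys-7* (0.81). It was negative for the lysozymes *lys-2* (-4.95), *lys-1* (-4.73), *ilys-5* (-2.15) and *lys-8* (-1.11), for the caenacins *cnc-3* (-1.79) and *cnc-8* (-1.57) and for *fipr-1* (-1.76).

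For the change from starved to CeMM 15 h, 28 genes differed as well. The difference was positive for *ilys-5* (3.98), *spp-18* (3.81), *abf-2* (3.30), *spp-1* (2.80), *spp-5* (2.79), *spp-3* (2.03), *lys-7* (1.03) and *spp-10* (0.79), and negative for *fipr-23* (-2.62), *cnc-8* (-2.17), *cnc-3* (-1.78), *lys-3* (-1.50), *lys-2* (-1.42) and *fipr-2* (-1.10). These interactions share the starved samples with the starvation interaction, so their signs are not independent of it.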

How the results depend on the processing

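Under the alternatives no direction among the 559 named values turned, over 13502 alternative values, of which 12851 kept their side of the threshold, 259 lost a call and 392 gained one. Counts of called genes stayed within 1.5 times except in 3 comparisons. edgeR's legacy method gave 40 genes (25 in the report) for *hlh-30(lf)* CeMM 3 h against starved, 24 for the fed genotype difference and 43 for the CeMM 15 h interaction (28 in the report). The fed difference was 20 with the compared groups only. The cause was not tested. Leaving out each sample in turn gave 6 to 17 for the fed difference (13 in the report), 17 to 33 for *hlh-30(lf)* CeMM 3 h, 32 to 44 for *hlh-30(lf)* CeMM 15 h, 34 to 42 and 29 to 35 for wild type CeMM 3 h and 15 h, 52 to 62 and 50 to 57 for starvation of wild type and *hlh-30(lf)*, 48 to 54, 55 to 61 and 44 to 49 for the starved, CeMM 3 h and CeMM 15 h genotype differences, and 31 to 41, 24 to 32 and 24 to 34 for the 3 interactions. A group left with 1 sample was assumed to vary like the others. The log2 ratio of the summed spp level, starved over fed wild type, was 1.27 in RPKM and 1.52 with TMM factors, against 1.56 in CPM.

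Replicates were made at different times, each together with its controls, but the labels tie no number to a time. The numbers were therefore not taken to pair the samples. Deviations of same-numbered samples correlated by 0.0107 on average over 28 pairs of groups (-0.333 to 0.447). This average cannot decide whether samples were paired, since a number may stand for different times in different groups. With the replicate block, used as an alternative only, 61 genes were called for starvation of wild type, 55 for *hlh-30(lf)* and 54 between starved genotypes, and 19 of the 559 named calls changed. A crossed pairing, chosen after seeing the data, gave 40 for wild type CeMM 3 h and 47 for the CeMM 15 h genotype difference. The planned promoter motif search was not run. Genes under 1 CPM rest on few reads, 3 counts being 0.0733 to 0.103 CPM.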

Other observations

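Some members outside the main patterns also moved. *ilys-4*, a lysozyme of the invertebrate type, was read at 12.5 and 12.6 CPM in starved wild type and at 33.6 and 33.3 CPM after 3 hours and 31 and 30.1 CPM after 15 hours of CeMM, which was above every fed sample (14.2 and 14.3 CPM in wild type and 15.2 and 17 CPM in *hlh-30(lf)*). In *hlh-30(lf)* it was 22.7 and 20.1 CPM in starved worms and 46.8 and 47.3 CPM at 15 hours. *cnc-10* was 15.3 and 15 CPM in starved wild type and 44.6 and 31.3 CPM in starved *hlh-30(lf)*, and at CeMM 3 h it was 15.4 and 15.3 against 58.5 and 63.8 CPM, with no overlap and a log2 difference of 1.95 (SE 0.21, edgeR adjusted p = 2.31e-05). *spp-24* overlapped between the starved genotypes, at 8.39 and 7.91 CPM in starved wild type and 8.13 and 7.55 CPM in starved *hlh-30(lf)*.

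Of the 99 genes, 36 lie on chromosome V, and 61 lie within 20 kb of another of them, in 21 clusters. Neighbours did not always share a course. In the cluster of *lys-1*, *lys-2* and *lys-3* the starved genotype difference was 1.41, 2.05 and 3.69 on the log2 scale, in the order given, but the starvation change in *hlh-30(lf)* was -2.76, -3.18 and 3.00. The neighbours *spp-8* and *spp-10* differed by -2.56 and -1.22 between starved genotypes. Exon bases are shared with another gene by 7 of the 99, which makes the values of those uncertain, since whether the counting used strand is not known.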
